A study of Homo sapiens with 6 samples.

Results

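Respiratory complex I genes were examined in RL, an established line of human B lymphoid cells with the translocation t(14;18), grown as multicellular aggregates (MALC) or in suspension. The 78 probe sets were those whose only gene symbol in the platform annotation was an NDUFA, NDUFB, NDUFC, NDUFS, NDUFV or NDUFAF symbol with a number, or NDUFAB1, out of 54613 probe sets that are not controls. They stood for 41 of 19775 genes, 33 of them subunits of the enzyme (62 probe sets) and 8 assembly factors (16 probe sets). Antisense and divergent transcripts were left out, and so were probe sets that name several genes, which removed the probe sets annotated to NDUFS5, NDUFS8 and NDUFC2. All 6 samples were untreated, the 3 MALC samples were collected after 10 days and the 3 suspension samples during exponential growth, and each was measured on 1 Affymetrix U133 Plus array. All of them come from 1 cell line. Culture form and the time or phase of collection differ together between the groups and cannot be told apart. Whether the samples of a group grew in separate cultures is not stated in the labels, and p-values therefore reflect the spread among these arrays alone, part of which may be technical.

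Complex I, NADH:ubiquinone oxidoreductase, is the first and largest enzyme of the mitochondrial respiratory chain. Its matrix arm takes electrons from NADH and passes them along iron-sulfur clusters to ubiquinone, and its membrane arm uses the energy to pump protons out of the matrix. Core subunits do the catalysis, accessory subunits surround and stabilise them, and assembly factors build or modify modules of the enzyme without staying in it. The core subunits of the membrane arm are encoded by mitochondrial DNA, and the other subunits by nuclear genes.

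Signals were deposited on a linear scale, with array medians of 80.7 to 81.7. Precision is limited by how few arrays there are. Samples 2 and 3 of a group were nearly alike, with correlations across probe sets of 0.9984 in MALC and 0.9985 in suspension, against 0.9949 to 0.9955 between sample 1 and the others of its group. All 5 B cell markers measured (MS4A1, CD79A, CD79B, PAX5 and CD22) had mean signals of 2861 or more in both groups. Of 5 fibroblast and stroma markers the summed signal was 599 to 1051 in suspension against 516 to 569 in MALC. Much of the range came from COL1A2 (54.08, 346.6 and 126.9 in suspension) and COL3A1 (25.71, 173.8 and 32.71), both highest in suspension 2. None of the 4 stromal markers above the filter on low signal passed an adjusted p of 0.05 in limma. The summed signals over all arrays were 270.9 to 308.6 for 4 T cell markers, 135 to 158.1 for 4 monocyte markers and 253.5 to 309.2 for 4 endothelial markers. Control probe sets gave ratios of 3′ to 5′ signal that moved with the groups. For GAPDH, MALC arrays had ratios of 1.01 to 1.02 and suspension arrays of 1.04 to 1.06, without overlap, and for ACTB they were 1.22 to 1.33 against 1.31 to 1.54. The part of the stromal signal and of these ratios in the results below was not tested. In such RNA from many cells, fewer cells that express a gene and less of its RNA per cell cannot be told apart.

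In MALC, complex I genes were mostly lower than in suspension, by small amounts, with the largest falls among the NDUFAF assembly factors. Of the 33 subunit genes 16 fell, 4 rose and 13 did not pass the test, and their median log2 change was −0.23, with a range from −0.56 to 0.24. Of the 8 assembly factor genes 6 fell, none rose and 2 did not pass, and their median log2 change was −0.44, with a range from −0.99 to 0.23. This holds for the NDUFAF names, as 10 complex I assembly genes with other names had a median of −0.19. The largest falls were those of the assembly factor genes NDUFAF4 and NDUFAF6, to about the same extent, and among the subunits that of NDUFS6. At an unadjusted p under 0.05 in limma, 22 subunit genes and all 8 assembly factor genes passed, against 51.5% of all genes tested and 67.6% of those at least as bright as the dimmest complex I gene. No gene was lost to the filter on low signal. A gene was called changed at an adjusted p under 0.05 in limma with Benjamini-Hochberg adjustment over 13765 genes. Log2 changes are those of signal + 16, MALC minus suspension.

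These counts have to be read against a comparison in which 42.7% of all genes tested were called, 19% as higher and 23.7% as lower, with a median log2 change of −0.06. Among the 4207 genes at least as bright as the dimmest complex I gene (a signal of 912), 60.4% were called, 24.9% as higher and 35.6% as lower, and the median was −0.07. The share of complex I genes called, 63.4%, was near the 60.4% of that set, which was bounded at the dimmest member and not matched for brightness. Of the complex I genes, 53.7% were called lower and 9.76% higher. No test of the list against other genes was made. With array weights 8 subunit genes rose (24.2%) and 20 fell (60.6%), against 26.5% and 38% of all genes. Quantile normalization gave medians of −0.19 for the subunits and −0.39 for the assembly factors, so both kept their direction. It was applied to the deposited values and cannot undo any scaling already in them.

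Fewer genes were called when samples 2 and 3 counted as 1 sample. This also left fewer samples in each group, so likeness of samples 2 and 3 and loss of sample size cannot be told apart. With samples 2 and 3 of each group averaged to 1 sample, an alternative chosen after seeing the data, 6 of the 41 genes were called (14.6%, against 17% of all genes): NDUFS3, NDUFS6, NDUFAB1, NDUFAF4, NDUFAF6 and NDUFAF8, all lower. Medians were −0.23 and −0.44 there too. The 4 rises among subunits numbered 1 without MALC 2 and 2 without suspension 2, and the 16 falls ranged from 11 to 19 when 1 array was left out. The median of the subunits was −0.15 without suspension 1.

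**Figure D1:**
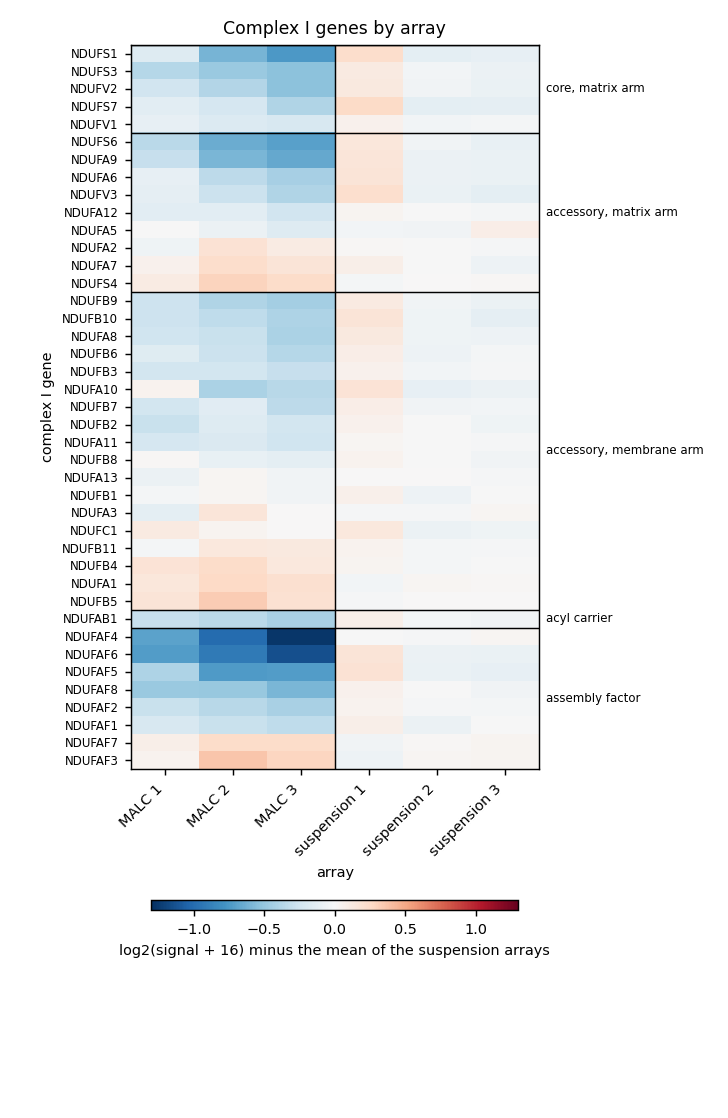
Log2(signal + 16) of the 41 complex I genes on the 6 arrays, each gene relative to its mean in the 3 suspension arrays (blue lower, red higher), grouped by role. Most genes are blue in MALC, most deeply NDUFAF4 and NDUFAF6, while NDUFB4, NDUFA1 and NDUFB5 are red on every MALC array.

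The 5 nuclear core subunits measured belong to the matrix arm, and 4 of them fell. NDUFS3, a core subunit next to the ubiquinone-binding module, had signals of 3291, 3050 and 2953 in MALC and 4638, 4154 and 4045 in suspension. The MALC arrays were all below the suspension arrays, and the log2 change was −0.46 (SE 0.07, limma adjusted p = 0.0021). NDUFV2, which carries an iron-sulfur cluster near the NADH site, had 2970, 2705 and 2446 against 3863, 3429 and 3335, again without overlap (log2 change −0.39, SE 0.09, limma adjusted p = 0.0109).

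NDUFS1, the largest core subunit and a carrier of several iron-sulfur clusters, had 2430, 1795 and 1627 in MALC and 3204, 2506 and 2541 in suspension. MALC 1 came close to suspension 2, and although the log2 change was −0.50 its SE was 0.16 (limma adjusted p = 0.0367). Leaving out MALC 1 kept the NDUFS1 call, but leaving out any other array ended it, with adjusted p-values of 0.12, 0.115, 0.107, 0.0555 and 0.0625 without MALC 2, MALC 3, suspension 1, suspension 2 and suspension 3. With _s_at and _x_at probe sets left out, a dimmer probe set stood for NDUFS1, and its log2 change was −0.13 (adjusted p = 0.191). NDUFV1, the subunit that binds NADH and the flavin, had 5830, 5551 and 5434 against 6550, 6163 and 6182 (log2 change −0.17, SE 0.05, limma adjusted p = 0.031). The groups did not overlap, but the NDUFV1 call too survived the omission of MALC 1 only (0.0635 to 0.108 otherwise). It was also lost with probe sets averaged (0.086), without trend (0.0541) and under quantile normalization (0.0566). NDUFS7, which holds the last cluster before ubiquinone, had 2764, 2609 and 2317 against 3601, 2780 and 2793. Its log2 change of −0.25 did not pass (limma adjusted p = 0.123), but did with the sample number as a block (0.0278). Here and below, that block rests on a pairing read from these same data, and it did not set the calls.

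Of 9 accessory subunits of the matrix arm, 3 fell, 1 rose and 5 did not pass, with a median log2 change of −0.18. NDUFS6, a zinc-binding subunit needed late in assembly, had 5659, 4617 and 4412 in MALC and 7964, 6988 and 6718 in suspension. It was the subunit with the largest change, a 1.48-fold fall with no overlap of the groups (log2 change −0.56, SE 0.11, limma adjusted p = 0.00425). NDUFA9, at the junction of the arms, had 2995, 2441 and 2335 against 4143, 3502 and 3495 (log2 change −0.52, SE 0.11, limma adjusted p = 0.00761). MALC 1 was the highest MALC array for both genes and suspension 1 the highest suspension array.

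NDUFA12 had 9906, 9904 and 9184 in MALC and 11160, 10870 and 10710 in suspension (log2 change −0.18, SE 0.05, limma adjusted p = 0.0159). This call was lost without MALC 3 (0.0535), without suspension 2 (0.0523) and after quantile normalization (0.0835, with a log2 change of −0.09). NDUFS4, an accessory subunit that stabilises the NADH-oxidising module, was the member of the matrix arm that rose. It had 1833, 2082 and 2003 against 1669, 1710 and 1717, with every MALC array above every suspension array (log2 change 0.21, SE 0.07, limma adjusted p = 0.0393). Omitting any array other than MALC 1 ended the NDUFS4 call (0.0744 to 0.155). The 5 members that did not pass were NDUFA2, NDUFA5, NDUFA6, NDUFA7 and NDUFV3, with log2 changes from −0.29 to 0.15. Blocking on sample number, NDUFA6 (adjusted p = 0.00264) and NDUFV3 (0.00947) were called lower.

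Of 18 accessory subunits of the membrane arm, 8 fell, 3 rose and 7 did not pass, with a median log2 change of −0.14. NDUFB9 had 6924, 6350 and 6131 in MALC and 9048, 8103 and 7899 in suspension, the largest fall of this arm (log2 change −0.37, SE 0.07, limma adjusted p = 0.00454). NDUFB10 had log2 changes of −0.33 and NDUFA8 of −0.32, with adjusted p-values of 0.0123 and 0.0102. The falls of NDUFB6, NDUFB3, NDUFB7, NDUFB2 and NDUFA11 lay between −0.27 and −0.22. In all 8 the MALC arrays lay below the suspension arrays.

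Not all of these calls were stable when 1 array was left out. NDUFB6 missed the threshold when MALC 2 (adjusted p = 0.069), MALC 3 (0.0657) or suspension 3 (0.0517) was omitted. NDUFB7 missed it when MALC 3 (0.116) or any suspension array (0.0828, 0.0745 and 0.0785 for samples 1, 2 and 3) was omitted. The NDUFB2 call was lost with the mean of its probe sets (0.0547).

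The 3 membrane arm subunits that rose were NDUFB5, NDUFA1 and NDUFB4, all small accessory subunits. NDUFB5 had 6346, 7092 and 6483 in MALC and 5584, 5662 and 5650 in suspension (log2 change 0.24, SE 0.05, limma adjusted p = 0.0106). NDUFA1, encoded on the X chromosome, had 7235, 7812 and 7559 against 6373, 6678 and 6595 (log2 change 0.20, SE 0.05, limma adjusted p = 0.0116). NDUFB4 had 9695, 10130 and 9432 against 8783, 8465 and 8537 (log2 change 0.18, SE 0.04, limma adjusted p = 0.012). Within each of these genes the suspension arrays lay close together and every MALC array stood above them. The calls of NDUFA1 (0.0607) and NDUFB4 (0.0612) were lost without MALC 2, and that of NDUFB4 also without suspension 2 (0.0525). The 7 that did not pass, NDUFA3, NDUFA10, NDUFA13, NDUFB1, NDUFB8, NDUFB11 and NDUFC1, had log2 changes from −0.24 to 0.08. Blocking on sample number called NDUFA10 lower (adjusted p = 0.0179).

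NDUFAB1, the mitochondrial acyl carrier protein, is a subunit of complex I and also serves mitochondrial fatty acid synthesis. It had 11600, 11200 and 10720 in MALC and 15070, 14040 and 13880 in suspension. The spread within each group was small, and the 1.28-fold fall had an SE of 0.05 on the log2 scale (log2 change −0.36, limma adjusted p = 0.00114). The NDUFAB1 call held in all 20 alternatives, as did those of NDUFS3 and NDUFS6, although 1 of these had a single suspension array, assumed to vary like the MALC arrays.

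**Figure D2:**
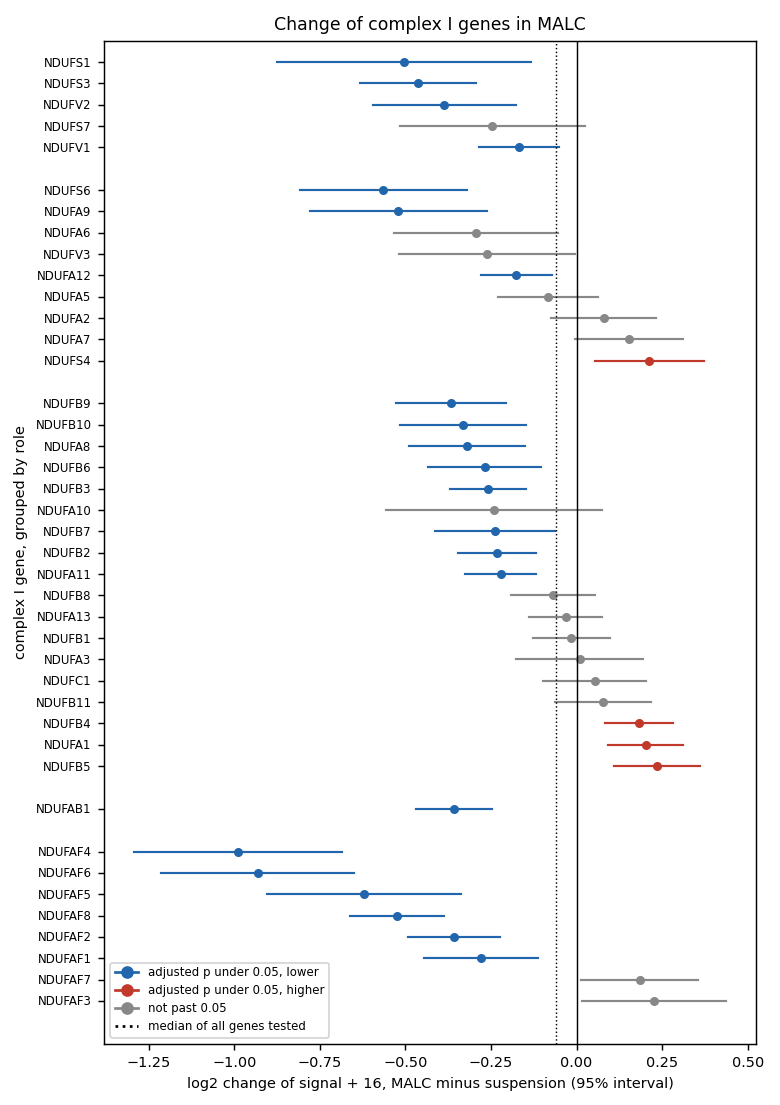
Log2 change (MALC minus suspension) of each complex I gene with its 95% interval from limma, grouped by role, with genes past an adjusted p of 0.05 in blue (lower) or red (higher). NDUFAF4 and NDUFAF6 lie near −1, the fallen subunits between −0.56 and −0.17, and the 4 risen subunits between 0.18 and 0.24.

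Among the members, NDUFAF assembly factors held the largest changes. NDUFAF4, a factor for the ubiquinone-binding module, had 2468, 1991 and 1655 in MALC and 4002, 3960 and 4067 in suspension. The suspension arrays lay close together, the MALC arrays were spread, and the groups were far apart, at 2038 ± 408.5 and 4010 ± 54 (SD, n = 3 each). This was a 1.99-fold fall (log2 change −0.99, SE 0.13, limma adjusted p = 0.0011). NDUFAF6, which acts early in assembly of the membrane arm, had 1191, 1038 and 886.8 against 2228, 1877 and 1864, a 1.91-fold fall (log2 change −0.93, SE 0.12, limma adjusted p = 0.00106).

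NDUFAF5, which hydroxylates an arginine of NDUFS7, and NDUFAF8, its partner, fell together. NDUFAF5 had 855.4, 674.6 and 682 in MALC and 1299, 1067 and 1054 in suspension (log2 change −0.62, SE 0.12, limma adjusted p = 0.00535). NDUFAF8 had 2944, 2919 and 2719 against 4284, 4098 and 3980, with the smallest adjusted p of the 41 genes (log2 change −0.52, SE 0.06, limma adjusted p = 0.000662). Neither pair of groups overlapped.

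NDUFAF2, a paralogue of NDUFA12 that holds its place during assembly, had 3160, 3011 and 2873 against 3979, 3817 and 3802 (log2 change −0.36, SE 0.06, limma adjusted p = 0.00243). NDUFAF1, a factor for the membrane arm, had 1100, 1041 and 1011 against 1347, 1211 and 1276 (log2 change −0.28, SE 0.07, limma adjusted p = 0.0168). The NDUFAF1 call was lost without MALC 2 (0.0668), MALC 3 (0.0616) or suspension 3 (0.0595). Those of NDUFAF4, NDUFAF6 and NDUFAF8 held in every alternative that tested them.

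The remaining assembly factors lay on the other side. NDUFAF3, which works with NDUFAF4, had 2248, 2810 and 2652 in MALC and 2087, 2229 and 2242 in suspension (log2 change 0.23, limma adjusted p = 0.0786). NDUFAF7, an arginine methyltransferase, had 1114, 1255 and 1251 against 1026, 1067 and 1082 (log2 change 0.18, limma adjusted p = 0.0769). In both the groups did not overlap but MALC 1 lay close to the suspension arrays. The log2 changes of the partners NDUFAF3 and NDUFAF4 thus had opposite signs. With the sample number as a block both NDUFAF3 (adjusted p = 0.0277) and NDUFAF7 (0.0481) were called higher.

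**Figure D3:**
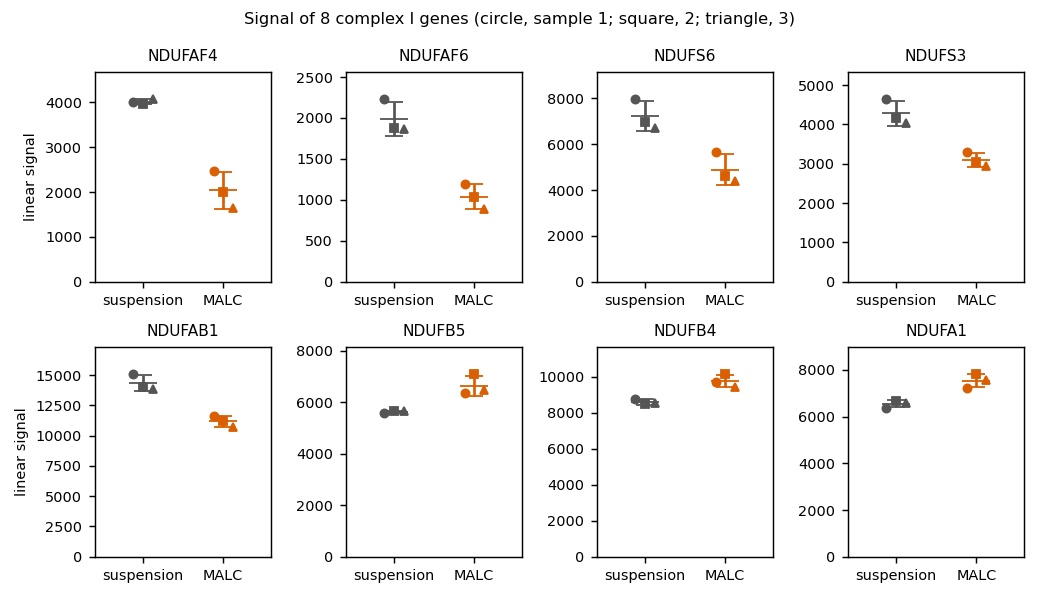
Linear signal of 8 complex I genes on each array, from 0, with the mean and SD of the 3 samples of each group. MALC lies below suspension without overlap for NDUFAF4, NDUFAF6, NDUFS6, NDUFS3 and NDUFAB1, and above it for NDUFB5, NDUFB4 and NDUFA1.

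Across the called genes MALC 1 stood nearest to the suspension arrays. Of the 22 complex I genes that fell, MALC 1 was the MALC array closest to the suspension mean in 19, and of the 4 that rose in 3. Over all genes called, this was so in 76.5% of those lower and 72.1% of those higher, so the complex I genes shared a pattern seen across the arrays. In 30 of the 41 genes (73.2%) the groups did not overlap, against 56.9% of all genes tested. Of these 30, 26 were the called genes and 4 did not pass.

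Several genes were measured by more than 1 probe set, and the signal of different probe sets of a gene may come from different parts or forms of its transcript. Of the 78 probe sets 70 passed the filter on low signal (34 lower, 8 higher and 28 not past the threshold in a limma fit over 32768 probe sets, where 41.7% of all probe sets were called, 20.4% as lower and 21.2% as higher). Of 20 genes with more than 1 such probe set, 12 had the same call in all of them, 8 did not, and none had a probe set that rose beside one that fell. NDUFAF4 (log2 changes −0.99 and −0.90), NDUFAF5 (−0.62 and −0.61) and NDUFAF6 (−0.93 and −0.55) fell in every kept probe set. NDUFA11 also fell in all 3 of its probe sets, with −0.22, −0.28 and −0.27.

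Other genes were less uniform. The NDUFS1 fall was seen in 2 of its 5 probe sets (log2 changes −0.50 and −0.72), while the others had −0.13, 0.09 and 0.26 and did not pass. For NDUFB8 the bright probe sets had −0.07 and −0.09 and did not pass, but a dimmer probe set rose, from 288.7, 245.5 and 247.1 in suspension to 478.4, 388.3 and 365.1 in MALC, without overlap (log2 change 0.62, adjusted p = 0.0045). The dimmer NDUFB4 probe set rose more than the bright one, with a log2 change of 0.64 against 0.18. In NDUFAF7 the dimmer probe sets rose, with log2 changes of 0.24 and 0.28, and the brightest did not pass. In NDUFA6 the dimmer probe set fell (−0.53, adjusted p = 0.00105) where the brighter did not pass (−0.29). The 8 probe sets under the filter had mean signals of at most 60.7 in either group.

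**Figure D4:**
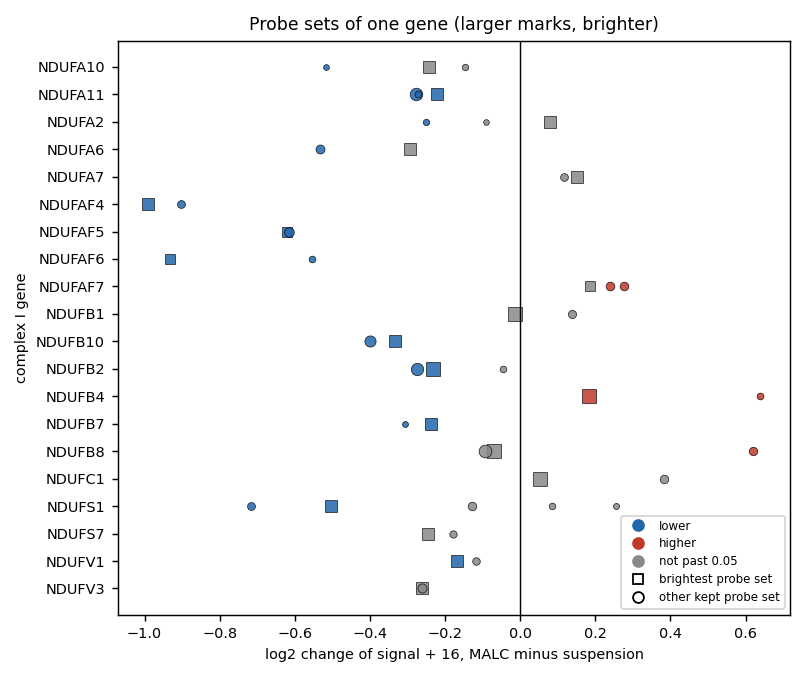
Log2 change (MALC minus suspension) of each kept probe set of the 20 complex I genes with more than 1, squares for the brightest, larger marks for higher signal, colour for the call. NDUFAF4, NDUFAF5, NDUFAF6 and NDUFA11 have all their marks in blue, whereas NDUFS1 and NDUFB8 have marks on both sides of 0.

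Promoter sequences of members were taken from RefSeq (GRCh38.p14) whatever the call of the gene, to show what lies before their start sites. The table held 38 of the 41 genes, and the 250 bases before the first listed start were searched on both strands. Of these genes 6 had more than 1 listed start, and only the first was used. The shares over all promoters count every listed start, so members and background were not counted alike. The letters CGCATGCG, the centre of the recognition sequence of nuclear respiratory factor 1, were in 7.89% of the 38 promoters (3 genes) and in 1.73% of all 35116 in the table. CCGGAAG, bound by ETS factors such as GABP, was in 15.8% (6 genes) against 8.52%. ACGTG, the core of many hypoxia response elements and part of the E-box CACGTG, was in 23.7% (9 genes) against 18.5%. In all, 7 motifs were searched, some of them overlapping. The longer recognition sequence of nuclear respiratory factor 1, which holds CGCATGCG, was in 2.63% (1 gene) against 1.03%, CACGTG, which holds ACGTG, in 10.5% (4 genes) against 6.34%, and the GC box GGGCGG in 55.3% (21 genes) against 42.6%. A longer YY1 motif was in none of the 38, against 0.373% of all. The 20 fallen genes were set beside the other 18, most of which did not pass and the rest of which rose. CGCATGCG was in 1 of the 20 and 2 of the 18, CCGGAAG in 4 and 2, and ACGTG in 4 and 5. A match is no evidence of binding, and its absence says only that these letters are not in this window.

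Shown are NDUFAF4 (6, 96897892 to 96898141, minus strand), with the largest fall, and NDUFS6 (5, 1801157 to 1801406, plus strand), the subunit with the largest fall. Beside them stand NDUFB4 (3, 120596086 to 120596335, plus strand) and NDUFA1 (X, 119871582 to 119871831, plus strand), which rose. Coordinates give the chromosome, first and last base, and all 4 stretches end at the base before the transcription start, with capitals for CGCATGCG, CCGGAAG and ACGTG on either strand.
NDUFAF4: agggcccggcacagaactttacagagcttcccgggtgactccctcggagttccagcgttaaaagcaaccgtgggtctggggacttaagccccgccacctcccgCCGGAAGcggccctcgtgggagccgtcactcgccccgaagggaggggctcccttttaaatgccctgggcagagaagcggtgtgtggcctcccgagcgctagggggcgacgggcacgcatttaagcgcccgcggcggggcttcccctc
NDUFS6: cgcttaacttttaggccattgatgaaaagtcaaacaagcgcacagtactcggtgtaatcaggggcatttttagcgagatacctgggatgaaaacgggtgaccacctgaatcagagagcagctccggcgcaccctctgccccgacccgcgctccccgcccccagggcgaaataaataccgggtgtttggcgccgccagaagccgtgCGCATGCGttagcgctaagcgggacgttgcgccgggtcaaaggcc
NDUFB4: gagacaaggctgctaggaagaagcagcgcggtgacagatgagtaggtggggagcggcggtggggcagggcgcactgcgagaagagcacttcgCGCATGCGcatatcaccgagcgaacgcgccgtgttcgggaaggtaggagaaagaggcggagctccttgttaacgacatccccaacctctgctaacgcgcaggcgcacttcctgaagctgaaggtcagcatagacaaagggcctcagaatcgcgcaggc
NDUFA1: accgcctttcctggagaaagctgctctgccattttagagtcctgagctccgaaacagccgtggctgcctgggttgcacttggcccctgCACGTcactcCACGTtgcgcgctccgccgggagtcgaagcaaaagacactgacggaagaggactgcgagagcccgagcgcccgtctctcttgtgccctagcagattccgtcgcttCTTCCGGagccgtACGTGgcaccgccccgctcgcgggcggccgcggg
The capitals in NDUFS6 and NDUFB4 are CGCATGCG, from 45 to 38 and from 158 to 151 bases before the start, in a gene that fell and in one that rose. NDUFAF4 holds CCGGAAG from 147 to 141 bases before the start. NDUFA1 holds ACGTG at 3 places and CCGGAAG at 1.

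Genes once counted with complex I, and partners outside the NDUF names, were set beside the members. COXFA4 and COXFA4L2, formerly NDUFA4 and NDUFA4L2 and now assigned to complex IV, did not pass. COXFA4 had 11420 ± 361 in MALC and 12170 ± 98.6 in suspension (SD, n = 3 each, log2 change −0.09, limma adjusted p = 0.0862), and COXFA4L2, known as a hypoxia-induced gene, had 118 ± 10.3 and 127 ± 11.6 (log2 change −0.09, limma adjusted p = 0.407). Of 10 assembly genes of complex I with other names, 5 fell, 1 rose (COA1, log2 change 0.33) and 4 did not pass, with a median of −0.19. ACAD9, a partner of NDUFAF1, fell most, with 497 ± 24.5 against 740 ± 10.8 (log2 change −0.56, limma adjusted p = 0.000793), and FOXRED1 fell by 0.47 on the log2 scale.

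Among the complex I genes of mitochondrial DNA, ND2 fell from 26020 ± 302 in suspension to 18940 ± 910 in MALC (log2 change −0.46, limma adjusted p = 0.000284). ND4 did not pass, with 27010 ± 332 in MALC against 27060 ± 1137 (limma adjusted p = 0.973). ND6 had 636.5, 424.3 and 501.8 in MALC and 637, 1570 and 1778 in suspension (log2 change −1.21, limma adjusted p = 0.0288). Suspension 1 was thus level with MALC 1, and the suspension arrays were widely spread.

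The share of genes called was smaller in complexes II, III and IV than in complex I, and complex V lay nearer to it. Of 37 nuclear genes of complexes II to V measured, 9 fell, 5 rose and 23 did not pass (37.8% called, median log2 change −0.10). This stood against 60.6% of complex I subunits and 63.4% of all complex I genes, assembly factors included. Over all genes tested the share was 42.7%, and over those at least as bright as the dimmest complex I gene 60.4%. The difference between these lists was not tested. Complex IV had 2 falls and 1 rise among 10 genes and a median of −0.02, and complex III 0 falls and 2 rises (UQCRB and UQCR11) among 7. Complex II had 1 fall among 5, that of the assembly factor gene SDHAF2, while the subunit genes SDHA, SDHC and SDHD did not pass. At an unadjusted p under 0.05 in limma, 4 of the 7 complex III genes passed, near the 51.5% of all genes. In complex V 6 of 15 fell and 2 rose (53.3% called and 40% lower, near the 60.6% and 48.5% of complex I subunits). There ATP5MC1 had a log2 change of −0.93 and ATP5MC2, which encodes the same protein of the c-ring, 0.41.

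Of 11 regulators of mitochondrial gene expression tested, 7 fell, 1 rose and 3 did not pass, with a median log2 change of −0.69. PPARGC1B and PPRC1, coactivators of nuclear genes for mitochondrial proteins, both fell, with log2 changes of −1.22 each (limma adjusted p = 0.00106 and 0.000343). The 1 that rose was NRF1, named after its values were seen, through a probe set with a log2 change of 0.83. The other 4 NRF1 probe sets had log2 changes from −0.22 to 0.16, and 1 of them fell, so the direction of NRF1 depended on the probe set.

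**Figure D5:**
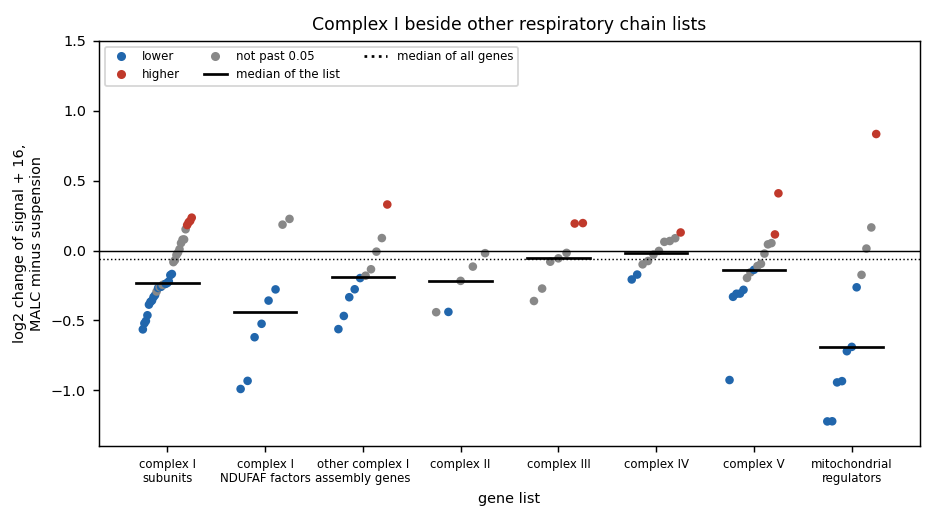
Log2 change (MALC minus suspension) of each gene tested in complex I and other respiratory chain lists, with the median of each list (bar) and of all genes (dotted line). The medians are −0.23 for complex I subunits and −0.44 for NDUFAF factors, against −0.02 for complex IV and −0.69 for mitochondrial regulators.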

How the data were processed

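The authors deposited a linear intensity for each of 54675 probe sets on every array, made from 200 ng of total RNA per sample, per the labels' protocols. MAS5 is the tool named in the submitters' processing notes, and its version, the background correction and the scaling between arrays are not given in the sources used here. If arrays were scaled to each other, a shift of all transcripts would not be seen.

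Annotation symbols were brought up to date by Entrez identifier (RefSeq genes, GRCh38.p14), which changed none of the 41 genes. Signals were analysed as log2(value + 16). The filter on low signal removed probe sets whose mean lay under the 40th percentile (a signal of 53.4) and left 32768, the brightest of which stood for its gene, and 13765 genes were tested with limma 3.58.1 in R 4.3.3 (eBayes with trend, two-sided, Benjamini-Hochberg). The text names every member past 0.05, the core subunits, NDUFAB1, the former NDUFA4 genes, and at most 2 genes of each other list, with other names given after their values were seen. The fit was tested on simulated data. Members and lists were chosen with earlier results of these data known.

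Same-numbered samples had deviations from their group means that correlated at 0.28, 0.18 and 0.19, and the number was taken as a block in an alternative fit. This pairing rests on these same values, and samples 2 and 3 were not told apart (0.15 and 0.2 when crossed). Calls under the block are therefore not separate support. The main fit had no block. In all, 17 other settings listed at the start and 3 chosen after seeing the data were run.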

Additional observations from a re-analysis of the deposited data

How the results depend on the processing

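Of the 26 complex I genes called, 6 kept the call in every alternative that tested them (NDUFS3, NDUFS6, NDUFAB1, NDUFAF4, NDUFAF6 and NDUFAF8) and 20 lost it in at least 1, with no gene called in opposite directions. With the sample number as a replicate block 4 subunit genes rose and 20 fell, and 2 assembly factors rose and 6 fell, while 20.7% of all genes rose and 25.8% fell. Beyond the 6 genes named above as called under the block, it changed no call among the 41. When 1 array was left out, rises among subunits ranged from 1 to 6 and falls from 11 to 19, rises among assembly factors from 0 to 2 and falls from 5 to 6. The subunit median then ranged from −0.26 to −0.15 and that of assembly factors from −0.47 to −0.41, and over all genes 1880 to 2859 rose and 2113 to 3632 fell. Rises of assembly factors numbered 1 after quantile normalization and with the mean of probe sets, and 2 with array weights. Array weights also gave 8 subunit rises, a subunit median of −0.16 and 5230 falls over all genes. Without _s_at and _x_at probe sets 4 assembly factors were tested, 3 fell, and their median was −0.61.

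Among the alternatives chosen after seeing the data, averaging samples 2 and 3 left 0 rises and 3 falls among subunits, 3 falls among assembly factors, and 1231 rises and 1113 falls over all genes. Without suspension 2 and suspension 3, a fit in which the lone suspension array is assumed to vary like the MALC arrays, there were 0 rises and 9 falls among subunits, and 1469 rises and 1386 falls over all genes. Without both samples numbered 1 there were 8 subunit rises (24.2%) and 22 falls (66.7%), and 2 rises and 6 falls of assembly factors, while 25.4% of all genes rose and 30.8% fell. That fit rests on the nearly alike samples 2 and 3.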

Other observations

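Among the transcripts that the choice of genes left out, some lie beside complex I genes. In the limma fit over probe sets, the probe set of NDUFB2-AS1, annotated as antisense to NDUFB2, fell, with 189.3, 204.8 and 187.4 in MALC against 266.4, 317.9 and 297.7 in suspension (log2 change −0.56, adjusted p = 0.00182). A probe set of NDUFV2-AS1 rose, with 143, 180.8 and 136.9 against 83.97, 102.9 and 101.2 (log2 change 0.59, adjusted p = 0.00513). The groups of both did not overlap. NDUFB2 and NDUFV2 themselves fell. NDUFV1-DT, a transcript divergent from NDUFV1, had a log2 change of 0.07 and did not pass (adjusted p = 0.453).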
